A study of Mus musculus with 3 samples.

Results

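Transcripts of 41 genes of DNA replication and S phase entry were followed in mouse livers that expressed human YAP, a transcriptional coactivator restrained by the Hippo pathway. The genes were listed by function, from origin licensing to nucleotide supply and the G1/S switch. They carried 48 of the 55681 non-control probes, and 41 of the 20284 gene symbols that could be named. The 3 groups were YAP (WT), YAP (1SA) and YAP (2SA), each with 1 one-colour Agilent array of Cy3-labelled liver RNA from the strain given as c57BL6/J, taken 2 days after the plasmid was delivered. In the mutants, serines that the Hippo kinase LATS phosphorylates are replaced by alanine.

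Every group had received YAP by hydrodynamic tail vein injection (HTVi), so YAP (WT) was itself an overexpressing, injected liver, and no uninjected liver was analysed here. In the methods for HTVi the mice were males aged 8 weeks, and the pLIVE plasmid placed YAP under a hepatocyte-specific AFP enhancer and albumin promoter. HTVi reaches only a share of hepatocytes, so each array averaged carrying and non-carrying cells. The labels do not say whether an array held 1 animal or a pool, and the YAP (WT) title alone carries the number 2. The 3 arrays lay on 1 slide. In bulk liver RNA, more cells that express a gene and more RNA per cell cannot be told apart. With 1 array a group there was no spread between animals and no test, so "higher" and "lower" below describe these arrays.

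Before a cell divides it loads the MCM helicase onto replication origins in G1, a step called licensing that needs ORC, Cdc6 and Cdt1. In S phase the helicase is switched on by Cdc45, GINS and Mcm10, and the polymerases, clamp and nucleotide enzymes copy the DNA. Many of these genes are transcribed under E2F factors, which cyclin D and cyclin E kinases release from the retinoblastoma protein. Adult hepatocytes are mostly quiescent and re-enter the cycle after injury or loss of tissue.

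Levels are given as spot intensities, the linear brightness after background subtraction, not yet scaled between arrays. The 75th percentile of the arrays was 291 for YAP (WT), 276 for YAP (1SA) and 319 for YAP (2SA), and differences are log2 intensities after division by it, so a difference of 1 is 2-fold. Repeated spots of 1 probe differed with a median SD of 0.07 (log2) on each array, for 287 to 295 probes. This gave an SD of 0.10 for a difference between arrays from spot error alone, without the error of labelling, hybridisation or animals. Differences over 2 such SDs (0.21) are called beyond spot error. Over all 13626 measured genes the differences had SDs of 0.34 in YAP (1SA) and 0.33 in YAP (2SA) from YAP (WT), and of 0.42 between the mutants. Dim spots repeat less well than bright ones, so 2 SDs from spots of like signal are given where they change a call. Each member probe had 1 spot on each array. Where 3 intensities follow a gene without names, they are of YAP (WT), YAP (1SA) and YAP (2SA) in that order, and 2 differences are of YAP (1SA) and then YAP (2SA) from YAP (WT). All 10 hepatocyte markers were well above background on the 3 arrays, with mean normalised log2 levels of 7.89, 8.02 and 7.70 in the order YAP (WT), YAP (1SA) and YAP (2SA).

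Most of the replication genes were higher on both mutant arrays than on the YAP (WT) array, and most were higher on YAP (2SA) than on YAP (1SA). Of the 41 genes, 38 had a probe that stood well above background on each array, and the counts and medians that follow are of these 38. The cyclin E gene Ccne2, the kinase gene Cdc7 and the origin recognition subunit gene Orc1 were not well above background on any array. The median difference of the 38 genes from YAP (WT) was 0.31 in YAP (1SA) and 0.58 in YAP (2SA), and the median of YAP (2SA) minus YAP (1SA) was 0.29. Over all 13626 measured genes the same medians were -0.00, -0.03 and -0.03.

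In YAP (1SA), 26 of the 38 genes were higher than in YAP (WT) beyond spot error, against 15.9% of all measured genes, and 1 was lower, against 18.9%. In YAP (2SA), 34 were higher, against 15.4%, and 1 was lower, against 19.1%. Between the mutants, 25 were higher in YAP (2SA), against 21.2%, and 3 were lower, against 23.9%. At least 2-fold higher than in YAP (WT) were 2 genes in YAP (1SA), where the share of all genes was 0.727%, and 8 in YAP (2SA), where it was 1.12%. None of the 38 was 2-fold higher in YAP (2SA) than in YAP (1SA), a difference that 2.47% of all genes showed, and none was 2-fold lower in any of the 3 comparisons, where the shares of all genes were 1.14%, 0.543% and 1.12%. With normexp, a background correction that adds an offset of 50 and here had a wider spot error limit of 0.38, the genes higher beyond spot error numbered 9 in YAP (1SA) against YAP (WT) and 15 between the mutants. The 3 comparisons share arrays and are not independent of each other.

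At a threshold of 1.5-fold, 6 genes were higher in YAP (1SA) and 19 in YAP (2SA) than in YAP (WT), against 3.08% and 3.79% of all genes. Between the mutants 7 were that much higher in YAP (2SA), against 6.99%. Without any threshold, 36 genes stood above YAP (WT) in YAP (1SA) and 35 in YAP (2SA), against 49.7% and 43.6%, and 31 stood higher in YAP (2SA) than in YAP (1SA), against 45.6%.

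The order of the arrays was the same for most genes. Of the 38, 31 read highest on YAP (2SA), against 31.3% of all genes, and 33 read lowest on YAP (WT), against 23.6%. The highest array was YAP (1SA) for 7 genes and YAP (WT) for 0, where the shares of all genes were 38.5% and 30.3%. The lowest array was YAP (1SA) for 2 genes and YAP (2SA) for 3, against 34.4% and 42.1%. The mutants lay on opposite sides of YAP (WT) for 5 genes, against 46.2% of all genes.

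**Figure D1:**
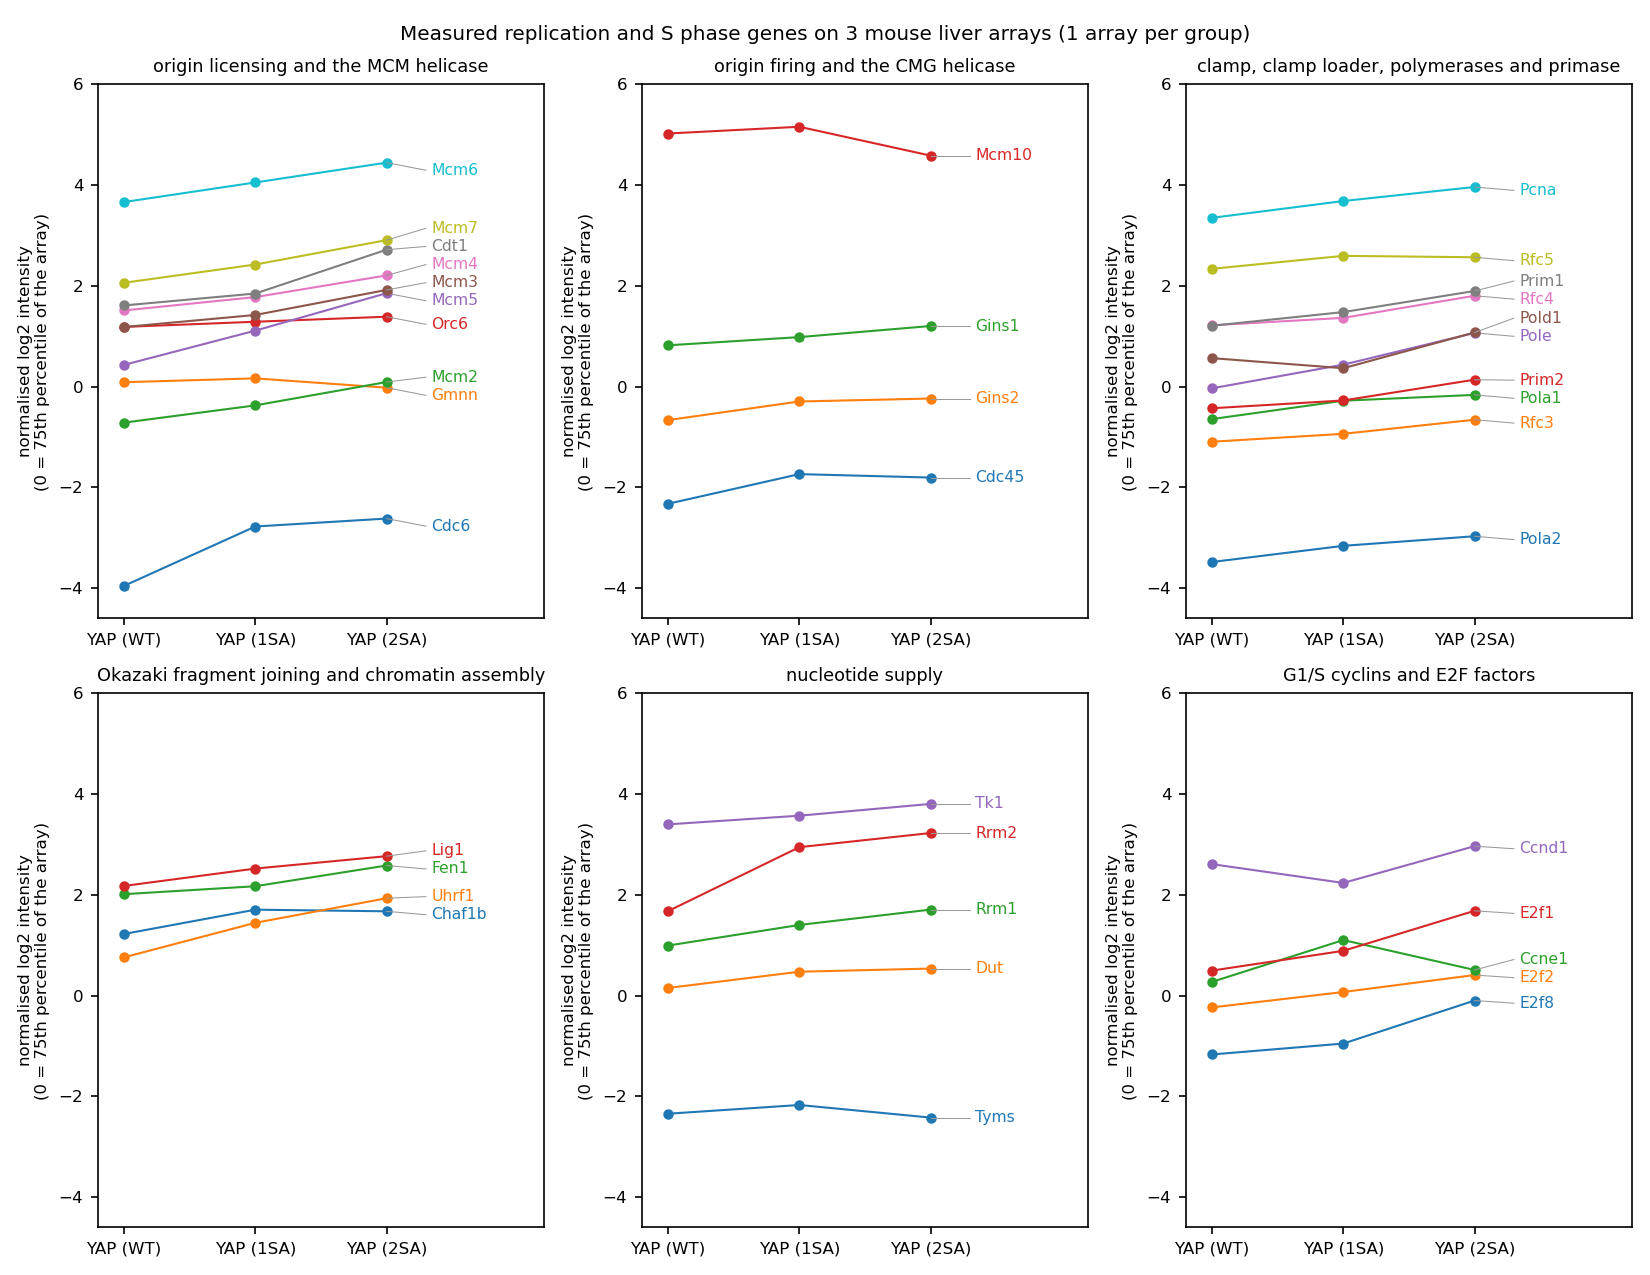
Normalised log2 intensity (vertical axis, 0 is the 75th percentile of the array) of the 38 measured genes on the 3 arrays (horizontal axis), in 6 panels by role, with 1 point per gene and array and a line joining the points of a gene. Most lines climb from YAP (WT) to YAP (2SA). Exceptions include Ccnd1 and Pold1, lowest on YAP (1SA), and Mcm10, Ccne1, Gmnn and Tyms, which fall from YAP (1SA) to YAP (2SA). Heights of different genes come from different probes and are not to be compared.

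Of the 8 genes at least 2-fold higher in YAP (2SA), 3 were origin licensing genes, namely Cdc6, Cdt1 and Mcm5. The 10 measured licensing genes had medians of 0.30 in YAP (1SA) and 0.79 in YAP (2SA), both against YAP (WT). Cdc6 (NM_011799), the ATPase that brings the helicase to ORC, read 18.8 on YAP (WT), 40.3 on YAP (1SA) and 52.1 on YAP (2SA). Its differences from YAP (WT) were 1.18 and 1.34, but these are dim spots. With normexp the Cdc6 differences were 0.44 and 0.43. A dimmer Cdc6 probe was well above background only on YAP (2SA), at least 1.20-fold higher than on YAP (WT). That probe read 16.5 on YAP (2SA) and 10.7 on YAP (1SA), a difference of 0.41 that is within the 0.55 of 2 SDs at like signal. Both probes placed YAP (2SA) above YAP (WT).

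Cdt1 (NM_026014), which loads the helicase together with Cdc6, differed mainly between the mutants. It read 890.1 on YAP (WT), 994 on YAP (1SA) and 2105 on YAP (2SA). The differences from YAP (WT) were 0.24 and 1.11, so YAP (2SA) stood 0.87 above YAP (1SA), the largest gap between the mutants among the 38 genes. Geminin (Gmnn, NM_020567), the inhibitor that binds Cdt1, read 309, 309 and 315 in the same order of arrays. Its differences from YAP (WT), 0.08 and -0.11, lay within spot error. YAP (2SA) was -0.185 from YAP (1SA) in Gmnn, within the limit of 0.21 but just past the 0.182 of its like signal. Orc6 (NM_019716), an origin recognition subunit, read 662, 674 and 837, and its differences of 0.10 and 0.20 also lay within the limit of 0.21, the latter past the 0.19 of its like signal.

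The helicase itself is a ring of Mcm2 to Mcm7, and all 6 subunit genes were in the list. Mcm5 (NM_008566) read 393 on YAP (WT), 597 on YAP (1SA) and 1157 on YAP (2SA), which gave differences of 0.68 and 1.42. Mcm5 was the only subunit gene past 2-fold. Mcm7 (NM_008568) read 1216, 1482 and 2401, with differences of 0.36 and 0.85. Mcm2 (NM_008564) read 177, 213 and 341, with differences of 0.34 and 0.81. Mcm6 (NM_008567) read 3693, 4584 and 6977, with differences of 0.39 and 0.78. For each of these subunits the 3 arrays stood in the same order, and each step was beyond spot error. Mcm3 (NM_008563) read 662, 740.1 and 1210.2, with differences of 0.24 and 0.74. Mcm4 (NM_008565) read 831, 946 and 1478, with differences of 0.26 and 0.70. The step from YAP (1SA) to YAP (2SA) ran from 0.39 in Mcm6 to 0.74 in Mcm5, and every subunit gene was beyond the limit of 0.21 in all 3 comparisons. The shares of all genes higher beyond it were 15.9% and 15.4% against YAP (WT) and 21.2% between the mutants. With normexp only Mcm5 and Mcm6 were beyond its limit in all 3, and with the spot error that Feature Extraction gives only Mcm5 was. In YAP (2SA) against YAP (WT) the 6 genes passed under each of these.

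The upstream sequences of these genes were read from RefSeq promoter windows (250 bases before to 50 after the start, GRCm38.p6), which held 33 of the 41 genes. Ccnd1, Ccne2, Gins1, Gins2, Gmnn, Mcm4, Pole and Prim2 were not among them. Both strands were searched for E2F letters (TTTCCCGC, TTTGGCGC, TTTCGCGC and TTTGCCGC, which can overlap each other) and for the CCAAT box bound by NF-Y. Shown are the 200 bases before the start of Cdc6 and of 3 MCM genes that hold E2F letters there, with E2F and CCAAT matches on either strand in capitals:
Cdc6 (chr11:98907951-98908150, plus strand): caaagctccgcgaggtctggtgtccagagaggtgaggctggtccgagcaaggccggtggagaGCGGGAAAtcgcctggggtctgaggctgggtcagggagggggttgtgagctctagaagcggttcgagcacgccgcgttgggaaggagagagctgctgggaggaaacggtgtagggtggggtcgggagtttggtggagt
Mcm5 (chr8:75109309-75109508, plus strand): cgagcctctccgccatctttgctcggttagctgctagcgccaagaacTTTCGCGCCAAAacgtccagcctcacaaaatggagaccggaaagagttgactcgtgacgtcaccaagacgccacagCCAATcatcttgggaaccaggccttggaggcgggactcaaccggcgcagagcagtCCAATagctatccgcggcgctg
Mcm6 (chr1:128359706-128359905, minus strand): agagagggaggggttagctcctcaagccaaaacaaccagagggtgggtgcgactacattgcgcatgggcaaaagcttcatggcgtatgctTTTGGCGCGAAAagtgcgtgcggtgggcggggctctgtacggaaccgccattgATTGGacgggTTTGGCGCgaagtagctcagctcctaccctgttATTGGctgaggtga
Mcm7 (chr5:138171884-138172083, minus strand): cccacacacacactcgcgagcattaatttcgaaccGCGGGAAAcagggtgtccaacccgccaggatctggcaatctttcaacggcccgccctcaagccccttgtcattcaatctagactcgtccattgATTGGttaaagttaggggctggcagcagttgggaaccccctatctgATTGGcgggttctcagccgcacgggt

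The first capitals in Mcm5, TTTCGCGCCAAA, start 153 bases before the start and are the reverse complement of TTTGGCGCGAAA, which starts 110 bases before the start of Mcm6. Each run is 2 overlapping E2F matches, 1 on each strand. This run of 12 bases was found, on either strand, in 4 of the 32851 promoter windows (0.0122%), and among the listed genes only in these 2. The E2F letters of Cdc6 and Mcm7 lie 138 and 165 bases before the start of the windows shown. Mcm7 had another window, which held a CCAAT box but no E2F letters. Where a gene had more than 1 window, the one with most E2F matches in these 200 bases was shown. Mcm5, Mcm6 and Mcm7 each hold 2 CCAAT boxes in these 200 bases, and Cdc6 holds none. A match is a description of letters and not of a bound site.

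Over the list, E2F letters were in the windows of 13 of 33 genes (39.4%), against 704 of the 27025 genes in the table (2.61%) and 2.26% of all promoter windows. A gene counted where any of its windows held the letters. CCAAT was in 18 of 33 (54.5%), against 41.1% of genes and 37.4% of windows. The TEAD box GGAATG, the letters bound by the factors through which YAP acts, was in 5 of 33 (15.2%), against 16.6% of genes and 14.7% of windows.

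The measured genes with and without E2F letters both stood above YAP (WT). The 12 measured genes with the letters had median differences of 0.35 in YAP (1SA) and 0.76 in YAP (2SA). The 19 without them had 0.32 and 0.52. In YAP (2SA) the genes with the letters ranged from 0.44 to 1.42, and those without from -0.44 to 1.55, so the ranges overlapped. Of the 8 genes 2-fold higher in YAP (2SA), Cdc6, Cdt1, Mcm5 and Uhrf1 had the letters, Rrm2, E2f1 and E2f8 had a window without them, and Pole had no window.

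**Figure D2:**
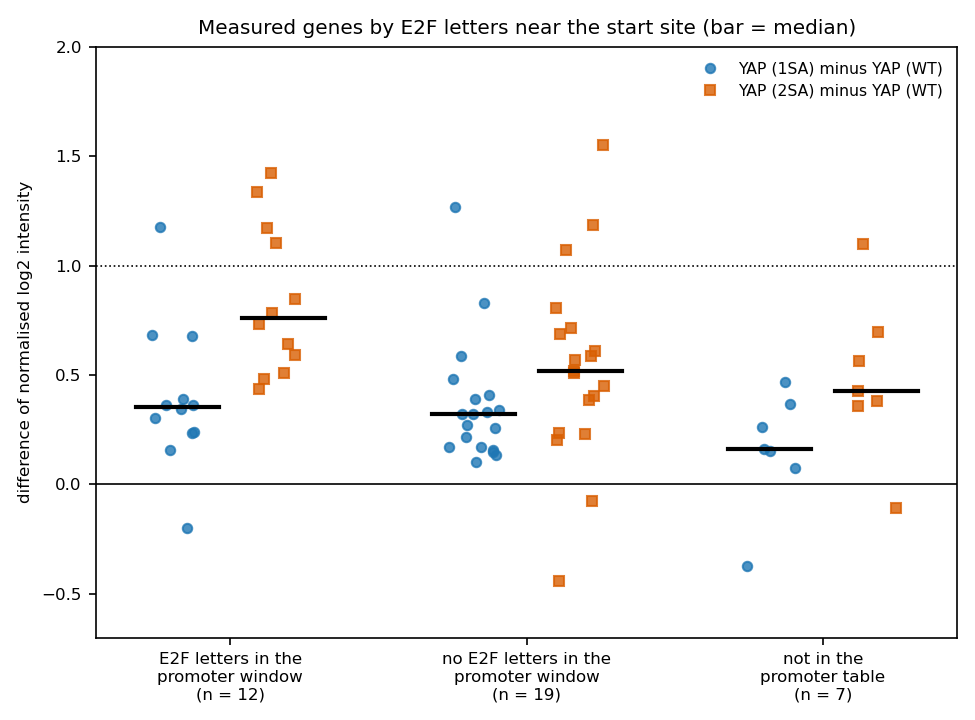
Differences from YAP (WT) in normalised log2 intensity (vertical axis; dotted line, 2-fold) of the 38 measured genes, split into 12 with E2F letters in the promoter window, 19 without and 7 that have no window in the table (horizontal axis), with circles for YAP (1SA), squares for YAP (2SA), 1 point per gene and bars at the medians. The medians with the letters are 0.35 and 0.76, those without are 0.32 and 0.52, and the points overlap.

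Origin firing factors were less uniform than the MCM ring. The 4 measured genes had medians of 0.27 and 0.41 against YAP (WT) and of -0.00 between the mutants. Cdc45 (NM_009862), which joins the MCM ring to make the active helicase, read 58.1 on YAP (WT), 82.8 on YAP (1SA) and 91.5 on YAP (2SA). Its differences from YAP (WT) were 0.59 and 0.52, and 0.34 and 0.20 with normexp. The mutants differed by -0.07 in Cdc45, within spot error. Of the GINS subunit genes, Gins2 (NM_178856) read 184, 225 and 272, with differences of 0.37 and 0.43. Gins1 (NM_027014) read 514, 546 and 737, with differences of 0.16 and 0.38.

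Mcm10 (NM_027290), a scaffold that helps to activate the helicase and despite its name is no part of the ring, was lower in YAP (2SA). It read 9483 on YAP (WT), 9864 on YAP (1SA) and 7684 on YAP (2SA). Its difference from YAP (WT) was 0.13 in YAP (1SA) and -0.44 in YAP (2SA), and YAP (2SA) stood -0.57 from YAP (1SA). Mcm10 was the only one of the 38 genes that was lower in YAP (2SA) than in YAP (WT) beyond spot error. It rests on 1 probe.

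The clamp, clamp loader, polymerases and primase stood higher on the YAP (2SA) array. Each of the 10 measured genes was above YAP (WT) there by more than 0.21, against 15.4% of all genes, although Pola2 was not past the limit at its like signal. Their medians were 0.26 in YAP (1SA) and 0.54 in YAP (2SA). Pcna (NM_011045), the sliding clamp, read 2972 on YAP (WT), 3550.2 on YAP (1SA) and 4990.4 on YAP (2SA), with differences of 0.33 and 0.61. The clamp loader genes Rfc3 (NM_027009) and Rfc4 (NM_145480) read 136 and 677 on YAP (WT), 144 and 711 on YAP (1SA), and 203 and 1117 on YAP (2SA). In YAP (1SA) both lay within spot error of YAP (WT), at 0.16 and 0.15, and in YAP (2SA) they were 0.44 and 0.59 above it, that of Rfc3 being 0.22 with normexp. A dimmer Rfc4 probe gave 0.13 and 0.54. Rfc5 (NM_028128) read 1474, 1669.8 and 1897 and differed by 0.26 and 0.23 from YAP (WT), and by -0.03, within spot error, between the mutants.

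Pole (NM_011132), the catalytic subunit of the leading strand polymerase epsilon, had the largest difference of this group. It read 285 on YAP (WT), 373 on YAP (1SA) and 669.9 on YAP (2SA), with differences of 0.47 and 1.10. With normexp the YAP (2SA) difference was 0.95 and no longer 2-fold. Pold1 (NM_011131), the catalytic subunit of the lagging strand polymerase delta, was the only gene of the group that read lower in YAP (1SA) than in YAP (WT). It read 431, 356 and 674, and its differences were -0.20 and 0.51. The former is within the limit of 0.21 but past the 0.19 of its like signal.

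Polymerase alpha and primase lay the RNA and DNA primers. Pola1 (NM_008892), the catalytic subunit, read 186 on YAP (WT), 227 on YAP (1SA) and 286 on YAP (2SA), with differences of 0.36 and 0.48. Pola2 (NM_008893) read 26.1, 30.9 and 40.8, with differences of 0.32 and 0.51. For Pola2, 2 SDs of a difference at like signal were 0.60 and 0.59, so neither difference exceeds the error of such spots. With normexp they were 0.12 and 0.06. Prim1 (NM_008921), the small primase subunit, read 673, 770.0 and 1193, with differences of 0.27 and 0.69. Prim2 (NM_008922), the large one, read 216, 228 and 352, with differences of 0.15 and 0.57. Both primase genes stood higher in YAP (2SA) than in YAP (1SA), by 0.42 and 0.41.

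Of the 4 genes that finish the lagging strand and restore chromatin, 3 were higher beyond spot error in YAP (1SA), against 15.9% of all genes. In YAP (2SA) 4 were, against 15.4%. The 4 genes had medians of 0.41 in YAP (1SA) and 0.58 in YAP (2SA) against YAP (WT). Fen1 (NM_007999), the flap nuclease of Okazaki fragments, read 1176 on YAP (WT), 1244 on YAP (1SA) and 1917 on YAP (2SA), with differences of 0.16, within the limit of 0.21, and 0.57. The former, 0.158, is just past the 0.156 of its like signal. Lig1 (NM_010715), the ligase that seals them, read 1318, 1586 and 2180.05, with differences of 0.34 and 0.59. Chaf1b (NM_028083), a subunit of the histone chaperone CAF-1, read 680.3, 901 and 1021, with differences of 0.48 and 0.45. A second Chaf1b probe gave 0.55 and 0.54, and the mutants differed by -0.03 and -0.01 on these probes, within spot error.

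Uhrf1 (NM_010931), which guides DNA methylation to newly copied strands, had the largest differences of this group. Its brighter probe read 493 on YAP (WT), 752 on YAP (1SA) and 1222 on YAP (2SA), with differences of 0.68 and 1.17. A dimmer probe, assigned to the transcript NM_001111079, did not follow it in YAP (1SA). That probe read 31.7, 5.70 and 29.6, was not well above background on YAP (1SA), and was at least 2.93-fold higher on YAP (WT) and at least 2.49-fold higher on YAP (2SA) than there. Uhrf1 had more than 1 promoter window, and another of them held no E2F letters. The window shown was picked for these letters, which lie 185 bases before its start, and its 200 bases also hold 2 CCAAT boxes:
Uhrf1 (chr17:56304113-56304312, plus strand): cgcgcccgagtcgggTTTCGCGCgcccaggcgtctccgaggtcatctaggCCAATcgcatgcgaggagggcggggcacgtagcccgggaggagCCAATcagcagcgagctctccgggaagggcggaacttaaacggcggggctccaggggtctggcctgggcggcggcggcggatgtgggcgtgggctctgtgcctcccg

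Nucleotide supply held the largest difference of the whole list. Rrm2 (NM_009104), the small subunit of ribonucleotide reductase, which makes deoxynucleotides and is limiting outside S phase, read 932 on YAP (WT), 2129.7 on YAP (1SA) and 2997 on YAP (2SA). The differences were 1.27 and 1.55, so that with Cdc6 it was 1 of the 2 genes past 2-fold in both mutants. Rrm1 (NM_009103), the large subunit, read 580.1, 730.0 and 1044.9, with differences of 0.41 and 0.71. The Rrm2 upstream sequence is shown because, unlike those above, it has no E2F letters of the 4 forms searched and 1 CCAAT box:
Rrm2 (chr12:24708054-24708253, plus strand): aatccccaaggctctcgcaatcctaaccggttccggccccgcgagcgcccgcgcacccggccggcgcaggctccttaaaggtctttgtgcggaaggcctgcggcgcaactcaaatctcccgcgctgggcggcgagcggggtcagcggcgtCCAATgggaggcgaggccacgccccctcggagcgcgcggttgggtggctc

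The other 3 nucleotide genes differed less. Dut (NM_023595), the enzyme that keeps uracil out of DNA, read 324 on YAP (WT), 384 on YAP (1SA) and 464 on YAP (2SA), with differences of 0.32 and 0.38. Tk1 (NM_009387), the salvage thymidine kinase, read 3075, 3283 and 4474, with differences of 0.17 and 0.41. Tyms (NM_021288), which makes thymidylate from scratch, read 57.3, 61.3 and 59.7. The Tyms differences from YAP (WT), 0.17 and -0.08, lay within spot error, whereas YAP (2SA) was 0.25 lower than YAP (1SA), which is within the 0.29 of 2 SDs at like signal.

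Of the listed G1/S genes, E2f1, E2f2 and E2f8 rose in the order YAP (WT), YAP (1SA) and YAP (2SA). Other E2F genes, E2f3, E2f5 and E2f6, did not and are given below. E2f1 (NM_007891), an activator E2F, read 411 on YAP (WT), 511 on YAP (1SA) and 1028 on YAP (2SA), with differences of 0.39 and 1.19. E2f8 (NM_001013368), a repressor E2F that is itself made in S phase, read 129.6, 143 and 299, with differences of 0.22 and 1.07, which were 0.14 and 0.70 with normexp. The YAP (1SA) difference of E2f8 was within the 0.29 of its like signal. E2f2 (NM_177733), another activator, read 248, 290.2 and 425, with differences of 0.31 and 0.64. As with Cdt1, the larger part of the E2f1 and E2f8 differences lay between the mutants, by 0.80 and 0.85.

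The listed cyclin genes Ccnd1 and Ccne1 did not follow this order. Ccnd1 (NM_007631), the cyclin D1 of early G1, read 1778 on YAP (WT), 1301 on YAP (1SA) and 2502 on YAP (2SA). It was -0.37 from YAP (WT) in YAP (1SA), where it was the only one of the 38 genes lower by more than 0.21 (Pold1 was also lower past the limit at its like signal), and 0.36 in YAP (2SA). Ccne1 (NM_007633), cyclin E1, was highest in YAP (1SA) and read 352, 593 and 455. Its differences from YAP (WT) were 0.83 and 0.24, and YAP (2SA) was -0.59 from YAP (1SA). A dimmer Ccne1 probe gave 0.48 and -0.11 against YAP (WT) and -0.59 between the mutants, so the probes differ in sign for YAP (2SA) against YAP (WT). Their mean was 0.06 there.

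**Figure D3:**
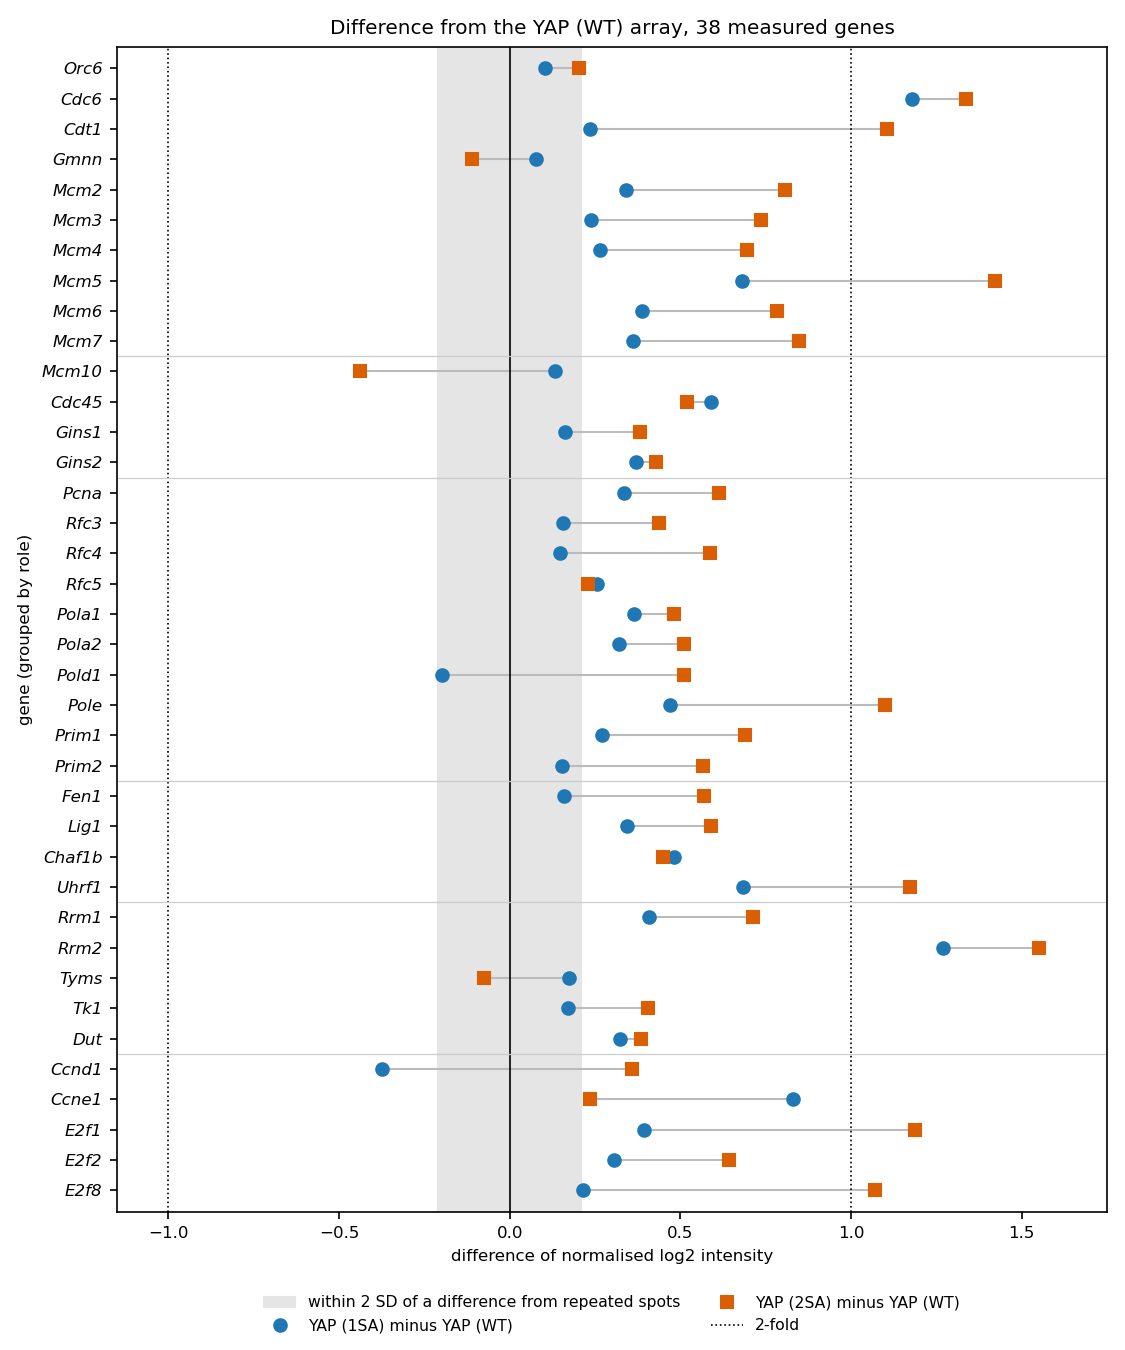
Difference from YAP (WT) in normalised log2 intensity (horizontal axis) for each of the 38 measured genes (vertical axis, grouped by role), with circles for YAP (1SA) and squares for YAP (2SA); the grey band marks 2 SDs of a difference from repeated spots and dotted lines mark 2-fold. Squares lie right of the band for 34 genes, and Mcm10 is the only gene with its square left of it.

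Other genes of the same pathways were taken from lists made by function. Of 52 further replication factors 47 were measured, with medians of 0.13 in YAP (1SA) and 0.19 in YAP (2SA) against YAP (WT), smaller than those of the 38 genes. In each mutant 21 of the 47 were higher beyond spot error, against 15.9% of all genes in YAP (1SA) and 15.4% in YAP (2SA), and 3 and 2 were lower, against 18.9% and 19.1%. In YAP (1SA) Atad5, Dbf4, Hells, Mcm8 and Mtbp, at 0.27, 0.30, 0.27, 0.49 and 0.22, were within 2 SDs at like signal. These limits were 0.29, 0.49, 0.60, 0.60 and 0.24. Orc2, lower at -0.31, was within its 0.44, and Rpa1, at 0.17, passed its 0.16. In YAP (2SA) Dbf4, at 0.45, was within its 0.49, while Rfc1, Shmt1 and Pold4, at 0.19, 0.17 and -0.16, passed their 0.15. At least 2-fold higher in YAP (2SA) were Dscc1, a clamp loader subunit, and Pole2, the second subunit of polymerase epsilon. Dscc1 read 22.4 on YAP (WT), 26.8 on YAP (1SA) and 64.7 on YAP (2SA), with differences of 0.33 and 1.39. Pole2 read 30.9, 42.0 and 79.2, with differences of 0.52 and 1.22. For both genes the YAP (1SA) difference was within the 0.60, and the YAP (2SA) difference past the 0.49, of 2 SDs at like signal.

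Genes of G2 and mitosis had larger median differences from YAP (WT) than the replication genes. Of 24 such genes 21 were measured, with medians of 0.71 in YAP (1SA) and 0.84 in YAP (2SA) and of 0.10 between the mutants. The median between the mutants was 0.00 with normexp and -0.03 with a stricter filter on dim probes, so it had no settled direction. Of the 21, all were higher beyond spot error in YAP (1SA), against 15.9% of all genes, and 20 in YAP (2SA), against 15.4%. Cdk1, the kinase that drives mitosis, read 158 on YAP (WT), 277 on YAP (1SA) and 360.0 on YAP (2SA), with differences of 0.89 and 1.05. Top2a, which untangles copied chromosomes, read 116, 179 and 274, with differences of 0.71 and 1.11. Kif11, a spindle motor, read 20.6, 39.4 and 50.2, with differences of 1.01 and 1.15. Bub1, a spindle checkpoint kinase, read 33.2, 64.1 and 67.1, with differences of 1.02 and 0.88.

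Of 32 further G1/S regulators 30 were measured, with medians of 0.19 in YAP (1SA) and 0.14 in YAP (2SA). Beyond spot error 15 were higher and 3 lower in YAP (1SA), against 15.9% and 18.9% of all genes, and 14 were higher and 4 lower in YAP (2SA), against 15.4% and 19.1%. At like signal E2f7 (0.22 and 0.27) and Cdkn2b (-0.45 and 0.33) were within 2 SDs in both mutants. Mycn, at 0.23, was within them in YAP (2SA). There Cdk4 and Cdkn1b, at -0.19 and -0.20, passed the 0.15 of their like signal. Ccna2, cyclin A2 of S phase, read 273 on YAP (WT), 486 on YAP (1SA) and 607 on YAP (2SA), with differences of 0.91 and 1.02. E2f3, E2f5 and E2f6 were highest in YAP (1SA) and lower in YAP (2SA) than in YAP (WT). Their differences were 0.35 and -0.34, 0.42 and -0.36, and 0.14 and -0.22. Those of E2f4, 0.14 and 0.08, lay within spot error. Cdkn1a, the cyclin kinase inhibitor p21, read 463, 194 and 726, which placed it -1.18 from YAP (WT) in YAP (1SA) and 0.51 in YAP (2SA). Cdkn1a thus had the same order of arrays as Ccnd1, lowest in YAP (1SA) and highest in YAP (2SA). Myc, a driver of growth and cycle entry, read 209.6, 472 and 305, with differences of 1.25 and 0.40, and like Ccne1 was highest in YAP (1SA).

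Checkpoint and replication stress genes had medians of 0.14 in YAP (1SA) and 0.16 in YAP (2SA), with 14 of 16 measured. The YAP (2SA) median was 0.085 with normexp and -0.099 with the stricter filter, which kept 6 of these genes, so its direction turned. Chek1, the replication checkpoint kinase, read 18.3 on YAP (WT), 35.8 on YAP (1SA) and 19.9 on YAP (2SA), with differences of 1.05 and -0.01. Chek1 was thus high on YAP (1SA) alone, from spots as dim as those of Cdc6.

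**Figure D4:**
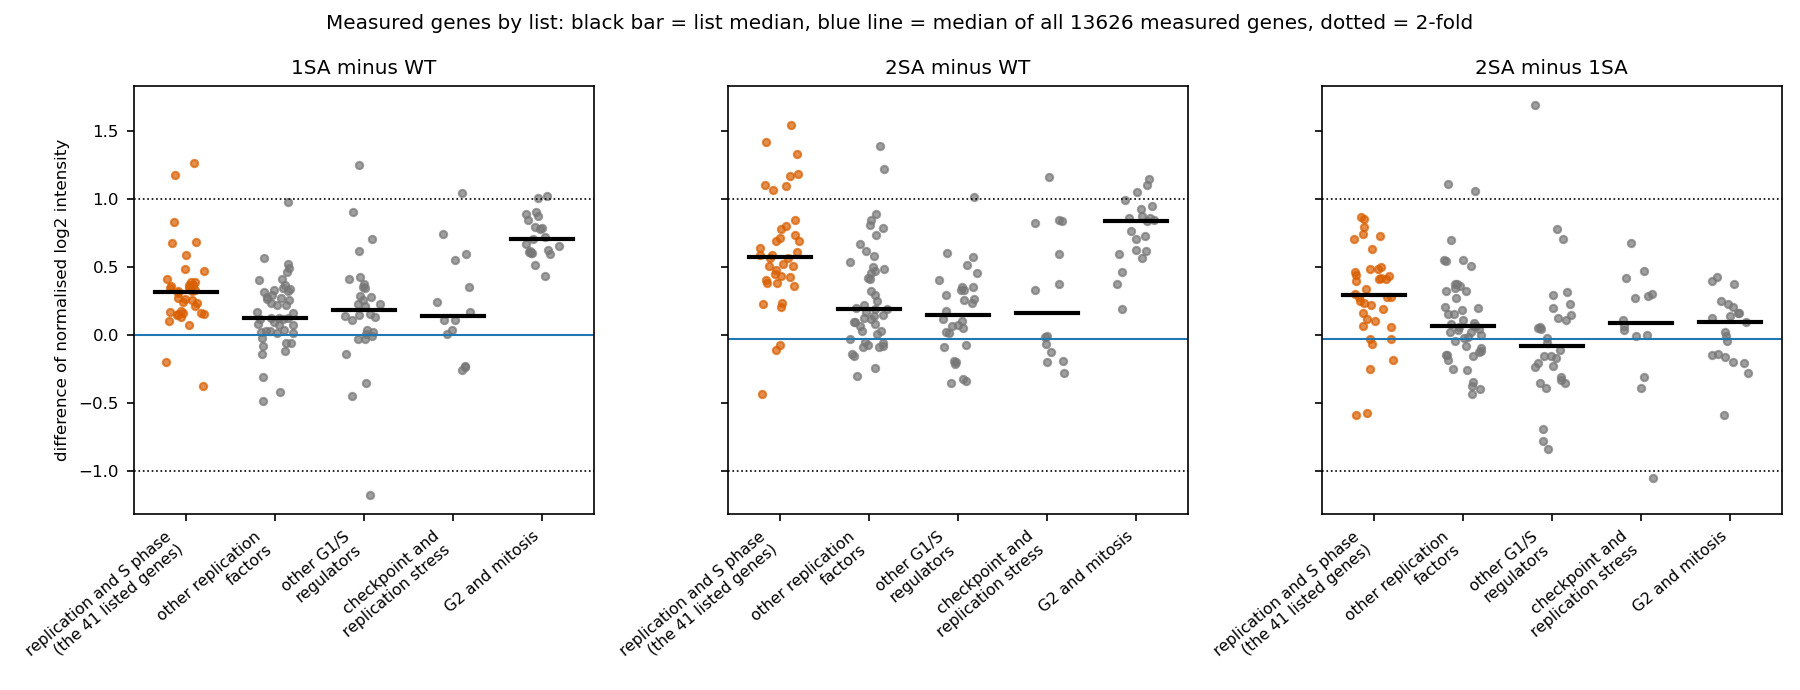
Difference of normalised log2 intensity (vertical axis) for each measured gene of the replication and S phase list (orange, 38 genes) and of the 4 other pathway lists (grey), in 3 panels for the 3 comparisons, with black bars at list medians, a blue line at the median of all 13626 measured genes and dotted lines at 2-fold. The orange medians are 0.31, 0.58 and 0.29, and the G2 and mitosis list stands at 0.71, 0.84 and 0.10.

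Markers of other liver cells also differed between the arrays, and their part in the replication values was not tested. Of 12 red cell lineage markers 6 were measured, and their summed level relative to the 75th percentile was 62.9 on YAP (WT), 104 on YAP (1SA) and 78.6 on YAP (2SA). The 6 had medians of 0.41 and 0.17 against YAP (WT). Higher beyond spot error were 5 in YAP (1SA), against 15.9% of all genes, and 3 in YAP (2SA), against 15.4%. Of these, Slc4a1 in YAP (1SA), at 0.38, and Klf1 in YAP (2SA), at 0.26, were within 2 SDs at like signal (0.60 and 0.28). The globin genes Hba-a1 and Hbb-b2 read 9684 and 1687 on YAP (WT), 17160 and 2967 on YAP (1SA), and 14516 and 2530 on YAP (2SA). Of genes of red cell precursors, Alas2, the first enzyme of their heme synthesis, read 6204, 7924 and 7242, and the factor Klf1 read 107, 94.3 and 141, whereas Epb42, Gata1 and Rhag were not well above background on any array. All 10 Kupffer cell markers were measured, with medians of -0.46 and -0.67 against YAP (WT) and summed levels of 261, 186 and 159. They did not move together, with ranges from -1.21 to 0.45 in YAP (1SA) and from -1.59 to 0.16 in YAP (2SA). Clec4f, for 1, was 0.45 and -1.56. In each mutant 2 of the 10 stood above YAP (WT), against 49.7% and 43.6% of all genes. The summed level came mostly from Cd5l, which read 33571, 23734 and 20581, and Marco, which read 15275, 6259 and 5571. The 7 measured stellate cell markers of 8 had medians of -0.06 and -0.60. All 7 bile duct markers were measured, with medians of -0.73 and -0.06, the former -0.16 with normexp. Of 10 granulocyte and monocyte markers 6 were measured, with medians of 0.22 and 0.09. Beyond spot error 4 were higher in YAP (1SA), against 15.9% of all genes, and 2 in YAP (2SA), against 15.4%. In YAP (1SA) the Camp and S100a8 differences, 0.22 and 0.23, were within the 0.24 and 0.29 of 2 SDs at like signal. Ccr2, a receptor of inflammatory monocytes, read 141, 674 and 279, with differences of 2.33 and 0.85. The summed level was 135 on each array and came mostly from Csf3r, which read 36349, 33320.4 and 39935, and Ngp was not above background on any. Of 10 lymphocyte markers 8 were measured, with medians of -0.03 and 0.11. The hepatocyte markers had medians of 0.11 and -0.20, the 10 sinusoidal endothelial markers of -0.04 and -0.11, and 10 reference genes of 0.04 and -0.01.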

How the data were processed

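Liver RNA of 3 groups was measured on 3 one-colour arrays, 1 a group, and the number of arrays limits the precision. Agilent Feature Extraction 10.10.1.1 was used by the authors, as the headers record. What they deposited for a spot is an intensity, linear and background-subtracted but without scaling between arrays. The deposited series matrix held the same intensity times 1 constant per array (3.02, 3.08 and 2.81). The scale of these constants is not given in the sources used here, and this matrix served as 1 of the alternatives.

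Flagged outlier spots were left out (181, 148 and 182 of 59305), none was saturated, and spots of the same probe were averaged as log2 intensities. Each array was then scaled by subtracting its own 75th percentile (log2, control spots excluded). A probe counted as measured where at least 50% of its spots were marked well above background. A gene was its brightest probe measured on all 3 arrays, named through RefSeq accessions (GRCm38.p6), which named 26762 of 55681 probes. The probes were placed on mm9 in the design, so no gene coordinates are given beyond the RefSeq promoter windows. Where only 1 side of a comparison was measured, the bound is the bright value over the higher of the dim value and the lowest measured signal of the dim array.

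Python 3.11.15, pandas 2.3.3, numpy 2.4.6, R 4.3.3 and limma 3.58.1 (normexp only) were used. The steps were tested on simulated data. Named were the 41 genes, pathway list genes 2-fold different from YAP (WT) in either mutant, and marker list medians. Also named were further E2F genes and pathway list genes whose call changed at like signal. Some genes that met this rule are not reported here. The genes and lists were chosen with earlier results of these data known. Alternatives were quantile normalisation, array medians, normexp (offset 50, on median spot signals), the series matrix, no filter or a stricter filter on dim probes, the mean of a gene's probes, kept outlier spots and a 1.5-fold threshold. Added after seeing the data were the Feature Extraction spot error and the spot error at like signal. Counts and medians are set beside those of all 13626 measured genes.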

Additional observations from a re-analysis of the deposited data

Results flagged for a closer look

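In 5 of the 38 measured genes the mutants lay on opposite sides of YAP (WT), against 46.2% of all measured genes, and with 1 array a group the difference between the mutants was not tested. The differences in normalised log2 intensity from YAP (WT) were -0.37 in YAP (1SA) and 0.36 in YAP (2SA) for Ccnd1, the only one of the 5 past the limit of 0.21 on both sides. They were 0.13 and -0.44 for Mcm10, and -0.20 and 0.51 for Pold1, which passed the limits at its like signal (0.19 on both sides). They were 0.076 and -0.11 for Gmnn and 0.17 and -0.077 for Tyms, within spot error on both sides.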

How the results depend on the processing

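Of the 38 genes, 5 changed the sign of a difference between the mutants under another processing, each of them a difference within spot error (Cdc6, Cdc45, Rfc5, Pola2 and Chaf1b), and 0 differences beyond it did. The median difference from YAP (WT) ranged from 0.26 to 0.35 in YAP (1SA) and from 0.50 to 0.61 in YAP (2SA). With normexp, 1 gene was 2-fold higher in YAP (1SA) and 5 in YAP (2SA), and 9 and 15 genes were higher beyond spot error in YAP (1SA) against YAP (WT) and in YAP (2SA) against YAP (1SA). With the stricter filter, which kept 29 genes, 1 was 2-fold higher in YAP (1SA). Without a filter 1 gene, Orc1, was 2-fold higher in YAP (2SA) than in YAP (1SA), from spots not well above background. At 1.5-fold the counts were 6 in YAP (1SA) and 19 in YAP (2SA) against YAP (WT), and 7 between the mutants. With the Feature Extraction error, 9 genes were higher in YAP (1SA) and 16 between the mutants. Of the other 94 recomputed values, each moved by less than 1 SD of a difference or kept its count within 1.5 times. The cause of these shifts was not tested. Averaging a gene's probes moved Ccne1 to 0.65 and 0.06. Another scaling moved the median of all genes by at most 0.076. No paired analysis was possible because there was 1 array a group, so slide could not be a block and no array could be left out. The SD of repeated spots was 0.19 to 0.23 below an intensity of 50 and 0.05 to 0.06 above 1000, which limits dim genes such as Cdc6 and Pola2.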
